A study of Macaca fascicularis with 6 samples.

Results

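The complement system was described in the liver of the cynomolgus macaque, Macaca fascicularis, through 36 genes, chosen by name to cover the C1q chains, the proteases and components of the 3 activation routes, the terminal components, the regulators and the receptors. Of these genes, 33 had at least 1 probe set that named no other gene, among 57 such probe sets of the 54675 on the array. C4A, C4B and VTN were named only by 5 probe sets shared with other symbols and were kept apart. The brightest probe set by mean signal over all arrays stood for each gene, and 30 of the 33 genes passed a filter on low signals, which kept 27304 probe sets with a mean signal of at least 129. C9, C3AR1 and C5AR1 did not pass it.

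The livers came from 3 animals that received vehicle and 3 that received an LXR ligand, and each was hybridised alone, so an array stands for an animal. LXR, the liver X receptor, responds to oxysterols and drives the export of cholesterol and the making of fat. Titles of the treated group contain the letters GW, and what the ligand was, its dose, how long it was given and the animals' age are not given in the sources used here. Signals are MAS5 intensities in arbitrary units from probes designed against human transcripts, so macaque genes are named by human symbols.

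Complement is a cascade of plasma proteins that tags and lyses microbes and clears dead cells. It starts when C1q, the mannose-binding lectin or the ficolins bind a surface, or by spontaneous turnover of C3, and each route meets at the cleavage of C3 before the terminal components build a pore. Hepatocytes make most of the plasma components, whereas the 3 C1q chains come mainly from macrophages, in the liver Kupffer cells, so in a bulk extract the system reports on more than 1 cell type. In such an extract, a change in the number of cells of a type and a change in RNA per cell cannot be told apart.

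The median signal of an array was 111 to 139 with vehicle and 129 to 139 with the ligand. A first principal component, which held 23.0% of the variance of the tested probe sets, put ligand array 1 at -89.8, away from the other 5 arrays, which lay between 0.632 and 36.8. A second component held 21.7%. It put vehicle arrays 1 and 2 at 50.4 and 51.9, ligand array 3 at -63.5 and the remaining arrays between -15.2 and -10.4. RNA quality, read as the log2 ratio of 3' over 5' controls, overlapped between groups for ACTB (2.15 to 3.06 with vehicle, 2.62 to 4.0 with the ligand; exact two-sided permutation p = 0.40) and for GAPDH (0.991 to 1.70 and 1.17 to 2.05; exact two-sided permutation p = 0.60), where 0.10 is the smallest p that 3 against 3 arrays allow. Both ratios were highest on ligand array 3. Hepatocyte markers identified the tissue as liver, with 10 of 11 listed genes measured, and their summed signal ran from 610785 to 728937 with vehicle and from 681207 to 724524 with the ligand. No separate batch is named in the sources used here.

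The C1q chains had higher signals in the livers of ligand-treated animals, while the components made by hepatocytes had, over the list, a median difference near 0. C1QA was 3.08-fold, C1QB 2.36-fold and C1QC 1.79-fold higher with the ligand, and for each of the 3 genes all treated animals exceeded all vehicle animals. The 20 measured hepatocyte-made components, 10 higher and 10 lower, had a median log2 difference of -0.019, beside 0.0032 over all tested probe sets. Single components ran from -0.32 to 1.26. The highest was FCN3, with overlapping groups, above C1QB at 1.24 and C1QC at 0.84. Without vehicle array 3 the split was 4 higher and 16 lower, with a median of -0.12. None of the 30 measured members passed limma's moderated test with Benjamini-Hochberg adjustment over all 27304 probe sets at 0.05, and 0% of all probe sets did. At an unadjusted p under 0.05 stood 5 members, all higher with the ligand, namely C1QA, C1QB, C1QC, CFD and C7, beside 5.58% of all tested probe sets in either direction, 3.24% in the higher and 2.33% in the lower direction. Without vehicle array 2, or without ligand array 2, 3 members stood there, the C1q chains.

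**Figure D1:**
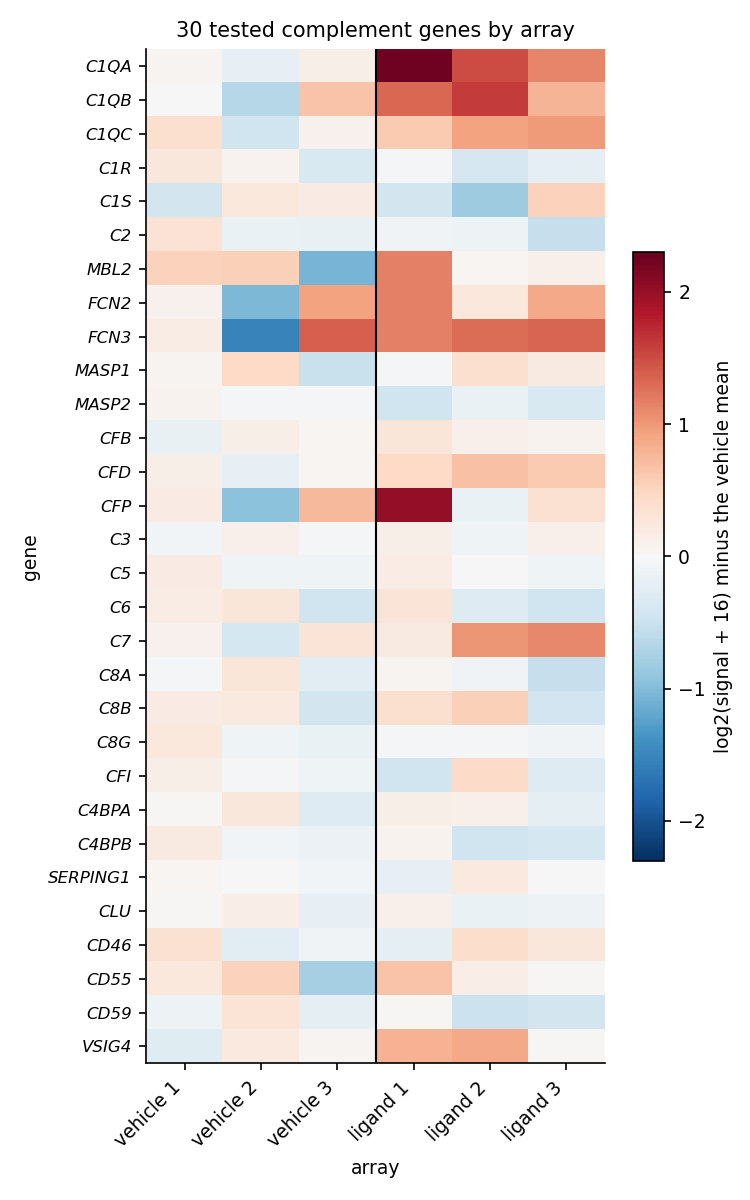
Colour gives log2(signal + 16) of each of the 30 tested complement genes on each array minus that gene's vehicle mean, with arrays in columns, vehicle left of the line and ligand right of it. The 3 C1q rows are at 0.60 to 2.24 on all ligand arrays, FCN3 at 1.16 to 1.33 and CFD at 0.45 to 0.68. On the vehicle arrays FCN3 runs from -1.54 to 1.37. The rows of C3, C5 and C6 stay between -0.46 and 0.30, whereas C1S runs from -0.81 to 0.53 and MBL2 from -1.08 to 1.17.

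C1q is the recognition molecule of the classical route, a bundle of collagen-like stalks with globular heads that bind antibody complexes, dying cells and pentraxins. Its chains are encoded by C1QA, C1QB and C1QC, which lie side by side in the order C1QA, C1QC, C1QB, with 0 other protein-coding genes between neighbours, on macaque chromosome 1 of assembly T2T-MFA8v1.1. C1QA read 206, 169 and 216 on the vehicle arrays, in the order of their numbers, and 986, 586 and 446 on the ligand arrays. The lowest ligand array was thus far above the highest vehicle array, and the ligand arrays were spread more widely than the vehicle arrays. The mean of C1QA was 197 ± 24.8 with vehicle and 673 ± 280 with the ligand (SD over the 3 animals of each group), a log2 difference of 1.62 ± 0.34 (SE) with a 95% interval of 0.87 to 2.38.

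C1QB read 718, 455 and 1144 with vehicle and 1821, 2225 and 1257 with the ligand. Its groups were separated only narrowly, by vehicle array 3 and ligand array 3. The mean of C1QB was 772 ± 348 with vehicle and 1768 ± 486 with the ligand (SD over the 3 animals of each group), a log2 difference of 1.24 ± 0.35 (SE) with a 95% interval of 0.47 to 2.0. C1QC read 2115, 1184 and 1751 with vehicle and 2496, 3127 and 3257 with the ligand. Here ligand array 1, the highest of all arrays on C1QA, was the lowest of the ligand group. The mean of C1QC was 1683 ± 469 with vehicle and 2960 ± 407 with the ligand (SD over the 3 animals of each group), a log2 difference of 0.84 ± 0.25 (SE) with a 95% interval of 0.28 to 1.40.

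By unadjusted p, C1QA ranked 40th, C1QB 160th and C1QC 233rd among the 27304 tested probe sets, and limma's adjusted p was 0.456, 0.825 and 0.829. A log2 difference at least as large as that of C1QA, in either direction, was found for 0.714% of all tested probe sets, and one at least as large as that of C1QC for 8.43%. The chains did not keep one ratio to each other on every array. The difference of log2 signal between C1QA and C1QC was -3.26, -2.70 and -2.93 with vehicle and -1.33, -2.38 and -2.82 with the ligand, with ligand array 1 farthest from the others. Vehicle array 2 had the lowest signal of all arrays for each chain, and without it the log2 differences were 1.52 for C1QA, 0.91 for C1QB and 0.61 for C1QC. Without ligand array 1 they were 1.31, 1.20 and 0.96.

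**Figure D2:**
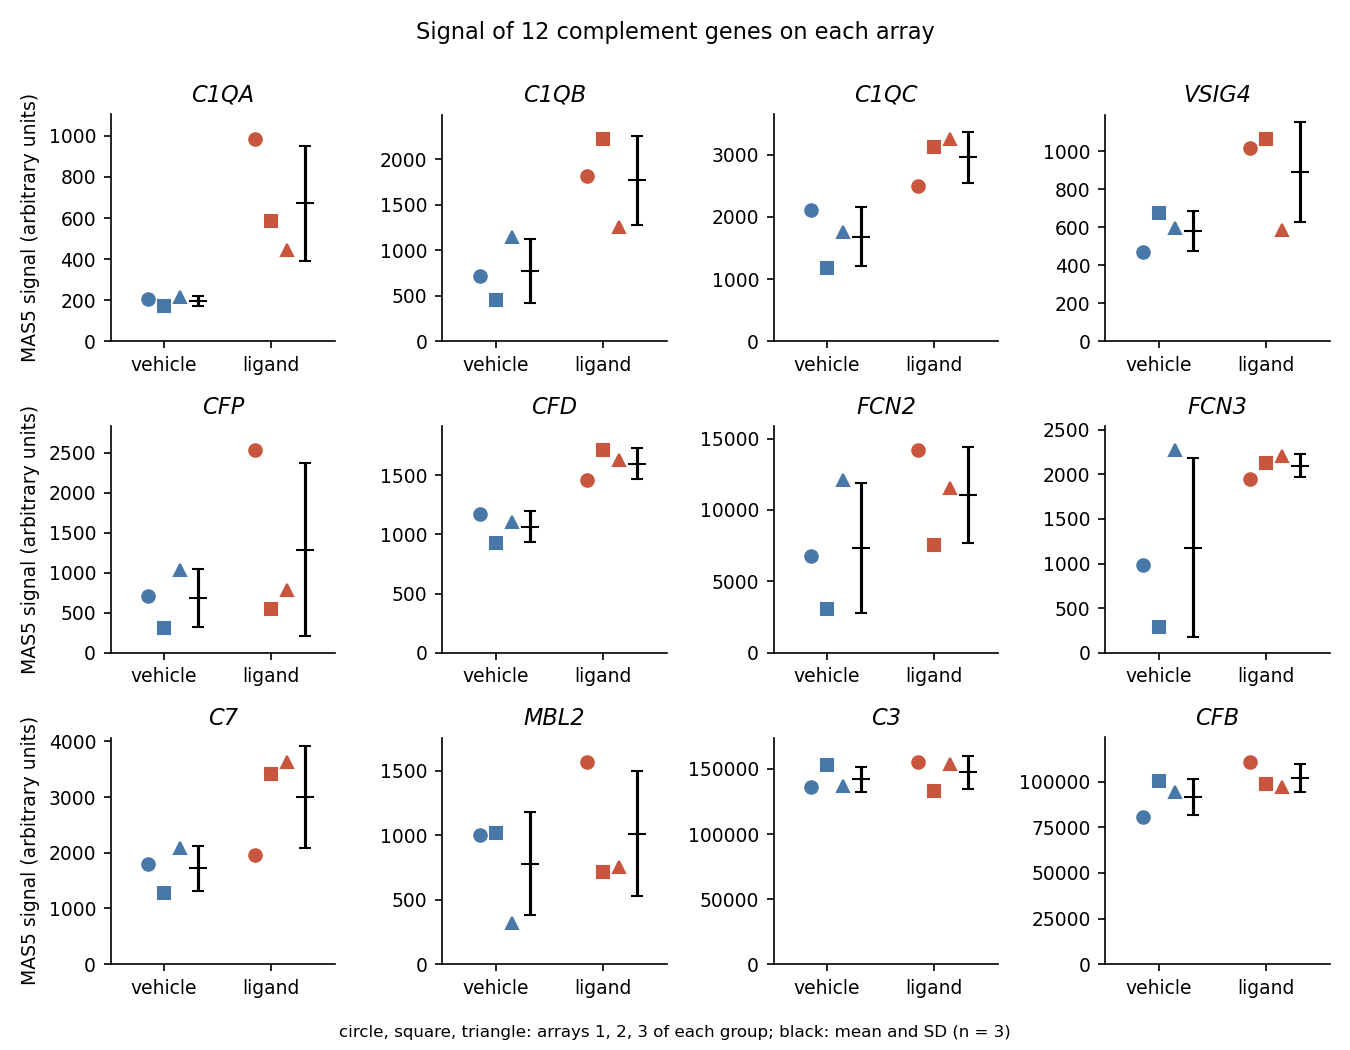
Each panel plots the MAS5 signal of 1 complement gene, in arbitrary units from 0, on the 3 vehicle and 3 ligand arrays (circle, square and triangle for arrays 1, 2 and 3), with the group mean and SD in black. C1QA, C1QB, C1QC and CFD are separated between groups, FCN2, FCN3 and CFP spread widely within a group, and C3 and CFB lie close together in both.

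Markers of macrophages that are not complement genes were higher with the ligand in the same animals. Of 17 listed markers 14 were measured, and all 14 had a higher mean with the ligand, with 6 at an unadjusted p under 0.05, where 3.24% of all tested probe sets stood in the higher direction. That count was 1 without vehicle array 2 (MARCO), 2 without vehicle array 1 (CD163 and MARCO) and 5 to 8 without each of the other arrays, and 3 when the prior variance had no trend. The groups did not overlap for 3 of the 14, against 11.0% of all tested probe sets with groups apart in either direction and 5.99% with the ligand group above. Between 12 and 14 of the 14 were higher whichever single array was left out. Their summed signal was 19935 to 31462 with vehicle and 35176 to 38367 with the ligand, and their median log2 difference was 0.64, or 0.41 without vehicle array 2. MARCO, a scavenger receptor of macrophages, had the smallest p of these markers, with a log2 difference of 1.23 ± 0.22 (SE), and the defining markers TIMD4 and FCGR1A were too dim to be tested. In monocyte and neutrophil markers the summed signal overlapped, at 1967 to 3330 with vehicle and 1477 to 3320 with the ligand.

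The mean of the C1q chains lay below that of the 14 macrophage markers in both groups, and less so with the ligand. The marker mean differed by 0.65 on the log2 scale, beside 1.62 for C1QA, 1.24 for C1QB and 0.84 for C1QC. Single markers had log2 differences of 0.0045 to 1.51, a range that holds those of C1QB and C1QC but not that of C1QA. The mean log2 signal of the 3 chains minus that of the 14 macrophage markers was -0.61, -0.77 and -0.91 in the vehicle animals and -0.041, -0.067 and -0.44 in the treated animals, groups that did not overlap. The difference between the group means was 0.58, or 1.5-fold, with vehicle at -0.76 ± 0.15 and ligand at -0.18 ± 0.22 (SD over the 3 animals of each group). This contrast was chosen after the values had been seen and carries no test. The part of the macrophage markers in the C1q difference was not tested.

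**Figure D3:**
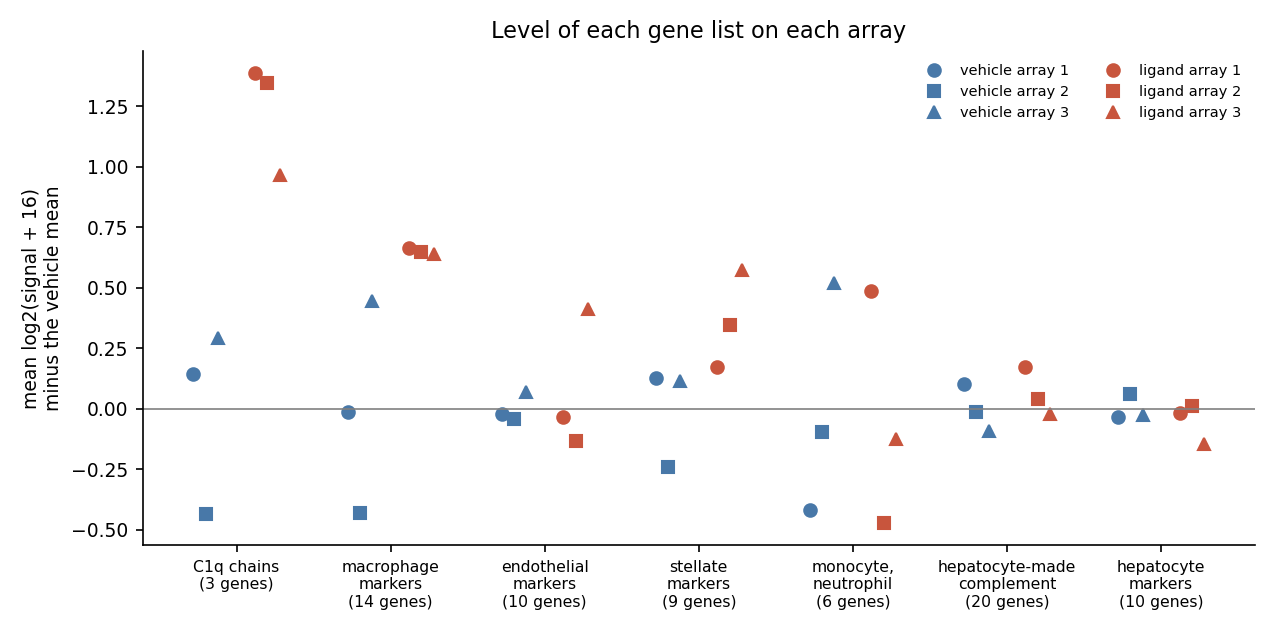
For each list of genes the mean log2(signal + 16) on each array is plotted minus the list's vehicle mean, in blue for vehicle and red for the ligand. The ligand arrays lie above all vehicle arrays for the C1q chains and the 14 macrophage markers, and barely so for the stellate and fibroblast markers. The groups overlap for the endothelial, monocyte and neutrophil markers, the hepatocyte-made complement components and the hepatocyte markers. Of the 10 endothelial markers 9 had higher means with the ligand, and the list also holds VWF, at a log2 difference of -3.39.

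The contrast of C1q with the components that hepatocytes make was taken on each array as the mean log2 signal of the 3 chains minus that of the 20 measured hepatocyte-made genes. It was -4.35, -4.81 and -4.0 in the vehicle animals and -3.17, -3.08 and -3.40 in the treated animals. The groups were apart, with a mean of -4.39 ± 0.40 in vehicle animals and of -3.22 ± 0.16 in treated animals (SD over the 3 animals of each group), a difference of 1.17 or 2.25-fold. Leaving out 1 array at a time gave 0.96 to 1.36. The same contrast taken with the 14 macrophage markers in place of C1q was 0.59, or 1.5-fold, with overlapping groups. The part that the markers share with the C1q contrast was not tested. On their brightest probe sets, 17 of the 20 hepatocyte-made genes had a 95% interval of the log2 difference within 1 in both directions. This is within a 2-fold change, and the other 3 were MBL2, FCN2 and FCN3. Other tested probe sets of C1S, C2, MASP1, MASP2, CFI and CLU had intervals that left this bound. The summed signal of all 20 was 548164 to 623042 with vehicle and 572265 to 635401 with the ligand.

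In the classical route downstream of C1q, the 3 genes measured on their own had lower means with the ligand, and their groups overlapped. C1R and C1S encode the proteases that sit between the C1q stalks, and C2 the protease that C1s cuts to form the C3 convertase. C1R read 11163, 9840 and 7255 with vehicle and 9037, 7113 and 8030 with the ligand, a log2 difference of -0.21 ± 0.21 (SE) with overlapping groups. C1S read 22923, 36393 and 35058 with vehicle and 22908, 17546 and 44562 with the ligand, where the lowest and the highest of the 6 values were both ligand arrays. Its log2 difference was -0.24 ± 0.32 (SE), or 0.052 without ligand array 2 and -0.62 without ligand array 3, and a second C1S probe set had -0.85 ± 0.43 (SE). By limma the unadjusted p of C1S was 0.475, but 0.0311 without ligand array 3 and 0.0321 for the mean of its probe sets, at -0.54.

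C2 had a log2 difference of -0.24 ± 0.22 (SE), from a mean of 5417 ± 1135 with vehicle to 4576 ± 762 with the ligand (SD over the 3 animals of each group). A dimmer probe set of C2 had -0.42 ± 0.60 (SE). C4, which joins C2 in that convertase, was read by probe sets that C4A, C4B and C4B_2 share, so the C4 genes cannot be told apart. The brightest of these was at 95287, 79626 and 102526 with vehicle and 95256, 99728 and 80291 with the ligand, a log2 difference of -0.0095 ± 0.16 (SE), and a second one had 0.14 ± 0.19 (SE). Another was below the filter on low signals.

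The recognition molecules of the lectin route had higher means with the ligand and a wide spread between animals. FCN3 and FCN2 encode ficolins, which bind sugars and acetyl groups on microbes, and MBL2 the mannose-binding lectin. FCN3 read 979, 287 and 2271 with vehicle and 1952, 2133 and 2204 with the ligand. The ligand arrays were close together, whereas the vehicle arrays held both the lowest and the highest value. The log2 difference of FCN3 was 1.26 ± 0.57 (SE) with a 95% interval of -0.0021 to 2.51, and it was 0.48 without vehicle array 2 and 1.94 without vehicle array 3.

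FCN2 read 6788, 3093 and 12113 with vehicle and 14180, 7511 and 11542 with the ligand, again lowest on vehicle array 2. Its log2 difference was 0.76 ± 0.42 (SE), with 0.24 without vehicle array 2 and 1.22 without vehicle array 3, and its second tested probe set had 0.081 ± 0.71 (SE). MBL2 read 1003, 1020 and 319 with vehicle and 1571, 712 and 753 with the ligand, overlapping, and differed by 0.44 ± 0.46 (SE) on the log2 scale, which became -0.095 when vehicle array 3 was left out. Ficolin transcripts also occur in the liver sinusoidal endothelium, and 9 of the 10 measured endothelial markers had higher means with the ligand (median 0.37 on the log2 scale). LYVE1, ENG and CDH5 were higher at 1.02 ± 0.34, 0.66 ± 0.23 and 0.58 ± 0.23 (SE), each with groups apart and an unadjusted p under 0.05. Of all tested probe sets, 5.99% had the ligand group above and 3.24% were higher at that p. PECAM1, STAB1, STAB2, CLEC4G, KDR and TEK were higher at 0.18 to 0.51 with overlapping groups. VWF, the von Willebrand factor that endothelium makes, was lower at -3.39 ± 0.47 (SE). It read 4667, 2129 and 1340 with vehicle and 157, 156 and 377 with the ligand. The summed signal of the list, VWF included, was 11102 to 13429 with vehicle and 11590 to 14958 with the ligand. The list was not summed without VWF, so this overlap does not describe the other 9 markers. The part of the endothelial markers in the ficolin differences was not tested. Without FCN2 and FCN3 the hepatocyte-made list had a median of -0.045 and the contrast with C1q became 1.27, an alternative chosen after the values had been seen.

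MASP2, the protease that ficolins and the lectin carry to cut C4 and C2, was the member with all ligand arrays below all vehicle arrays. It read 17427, 16156 and 15878 with vehicle and 12000, 14731 and 12989 with the ligand, a log2 difference of -0.32 ± 0.16 (SE) with limma's adjusted p at 0.880. Its other tested probe sets had overlapping groups, at -0.19 ± 0.26 and 0.14 ± 0.52 (SE). Over all 30 measured members, 4 had groups apart with the ligand higher and 1 with the ligand lower, against 5.99% and 4.96% of all tested probe sets. The count of 5 was 8 without ligand array 1, 8 without ligand array 3 and 9 without vehicle array 3, where fewer arrays make such a separation easier, and 3 after median centring, which left C1QC and MASP2 overlapping. MASP1, a related protease that starts the lectin route, differed by 0.18 ± 0.30 (SE) on the log2 scale, and its 3 other tested probe sets had 0.25, -1.27 and -0.47.

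In the alternative route, factor D stood apart from factor B. CFD encodes the serine protease that cuts factor B, and it is made largely by fat tissue and also by macrophages. CFD read 1173, 924 and 1101 with vehicle and 1459, 1711 and 1628 with the ligand, so that the groups were apart. Its mean was 1066 ± 128 with vehicle and 1599 ± 128 with the ligand (SD over the 3 animals of each group), a log2 difference of 0.58 ± 0.21 (SE) or 1.5-fold, at limma's adjusted p = 0.840. By limma its unadjusted p was 0.0212, and 0.0716 without vehicle array 2, 0.0643 without ligand array 2 and 0.0662 after median centring. CFB, the hepatocyte product that forms the protease part of the alternative C3 convertase, read 80591, 100095 and 94185 with vehicle and 110828, 98489 and 96812 with the ligand, overlapping. The log2 difference of CFB was 0.16 ± 0.15 (SE).

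CFP encodes properdin, a myeloid product that stabilises that convertase. It read 704, 314 and 1039 with vehicle and 2533, 551 and 788 with the ligand, so that 1 ligand array lay above all others and the remaining ligand arrays lay within the vehicle range. Its log2 difference was 0.74 ± 0.56 (SE), and 0.10 without ligand array 1. C3, the protein on which all routes converge, had nearly the same signal on all arrays, at 136335, 152744 and 136624 with vehicle and 155483, 132819 and 153949 with the ligand. The log2 difference of C3 was 0.053 ± 0.14 (SE) with a 95% interval of -0.26 to 0.37, which lies inside a 2-fold change in either direction.

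Among the terminal components, which form the membrane attack complex, C7 had a different pattern from the rest. C7, which anchors the growing complex in the membrane and is made by many cells outside the hepatocyte, read 1805, 1272 and 2080 with vehicle and 1958, 3419 and 3634 with the ligand. Ligand array 1 lay within the vehicle range and the other ligand arrays above it. Its log2 difference was 0.78 ± 0.29 (SE) or 1.71-fold, at limma's adjusted p = 0.842, and it ran from 0.58 without vehicle array 2 to 1.06 without ligand array 1. By limma its unadjusted p was 0.0216, and 0.0880 without vehicle array 2, 0.0758 without ligand array 2, 0.0842 without ligand array 3 and 0.0536 when the prior variance had no trend. Markers of stellate cells and fibroblasts had summed signals of 17027 to 26767 with vehicle and 32689 to 45713 with the ligand. DCN and COL3A1 weighed most in these sums, at means of 12289 and 4936 with vehicle and 18750 and 10982 with the ligand. Of 9 measured markers 7 were higher, beside 50.3% of all tested probe sets above 0. At an unadjusted p under 0.05 stood 3, all higher, beside 3.24% of all tested probe sets higher at that p. COL1A1 and PDGFRB were lower, at -0.22 ± 0.20 and -0.078 ± 0.27 (SE). Groups were apart for COL1A1 and, with the ligand above, for COL3A1, beside 11.0% of all tested probe sets in either direction. The part of the stellate and fibroblast markers in the C7 difference was not tested.

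C5, whose cleavage starts the terminal sequence, had a log2 difference of 0.022 ± 0.16 (SE), and C6, the next to join, -0.15 ± 0.25 (SE). The 3 chains of C8 gave -0.18 ± 0.21 for C8A, 0.16 ± 0.27 for C8B and -0.043 ± 0.16 for C8G (SE). The 95% intervals of these 5 genes all lay between -0.70 and 0.76, with overlapping groups. C9, the subunit that lines the pore, was too dim to be tested, at 12.6, 168 and 130 with vehicle and 181, 79.8 and 176 with the ligand. No detection calls were used, so this dim reading cannot be told from a human probe that reads the macaque transcript poorly.

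**Figure D4:**
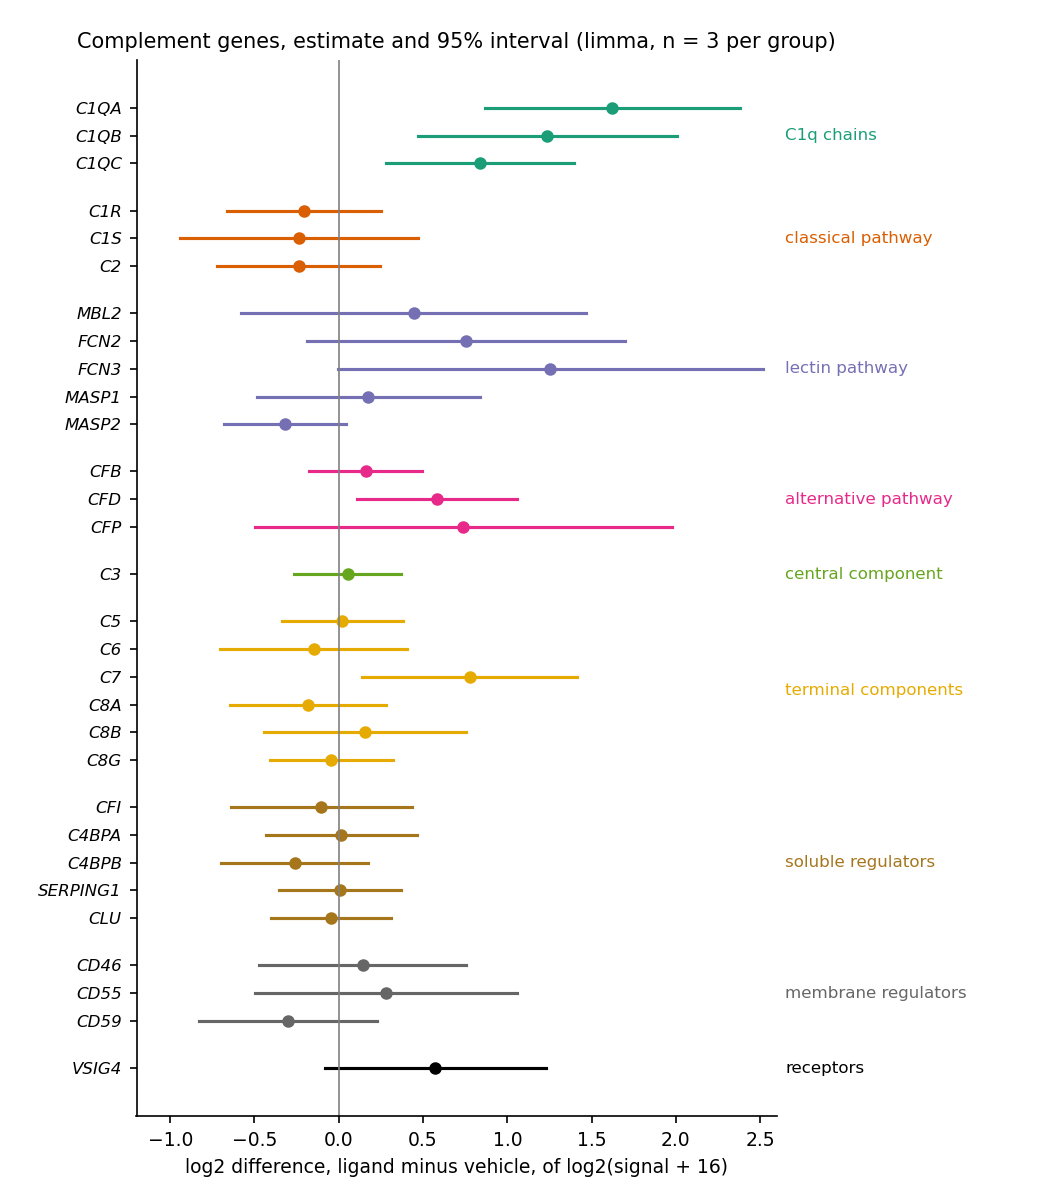
Points give the log2 difference, ligand minus vehicle, of each of the 30 tested complement genes by role, and lines the 95% interval from limma. The intervals of C1QA, C1QB, C1QC, CFD and C7 lie above 0, without adjustment for the number of probe sets, and those of the other 25 genes include 0.

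The soluble regulators had log2 differences between -0.26 and 0.014 on their brightest probe sets. SERPING1 encodes the C1 inhibitor, which removes C1r and C1s from C1q, and it read 31634, 31099 and 29567 with vehicle and 26969, 35951 and 30383 with the ligand. With a log2 difference of 0.0061 ± 0.16 (SE), its ligand arrays held both the lowest and the highest value. CFI, the protease that inactivates C3b and C4b, had -0.10 ± 0.24 (SE), while its dimmer probe set had -0.97 ± 0.66 (SE) and the mean of both -0.53. C4BPA and C4BPB, the chains of the C4b-binding protein that serves as its cofactor, had 0.014 ± 0.20 and -0.26 ± 0.20 (SE). CLU, which holds back the terminal complex, had -0.047 ± 0.16 (SE) on its brightest probe set, while dimmer probe sets had -0.12 ± 0.21, -0.40 ± 0.29 and, with groups apart, 0.47 ± 0.25 (SE). Vitronectin, another inhibitor of that complex, was read by a probe set shared by VTN and SEBOX, at -0.046 ± 0.18 (SE).

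The regulators on cell membranes, which protect a body's own cells, gave no common direction. CD46, a cofactor for factor I, had a log2 difference of 0.14 ± 0.28 (SE), and CD55, which takes the convertases apart, had 0.28 ± 0.35 (SE). CD59, which blocks the pore, had -0.30 ± 0.24 (SE), and the groups overlapped for each of the 3 genes. Their other tested probe sets gave -0.25 for CD46, 0.027 and 0.77 for CD55, and -0.017 and 0.20 for CD59.

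Of the receptors, VSIG4 is the C3b receptor of Kupffer cells. It read 469, 674 and 596 with vehicle and 1016, 1066 and 588 with the ligand. Arrays 1 and 2 of the ligand group lay above all vehicle arrays, and ligand array 3 lay within the vehicle range. Its log2 difference was 0.57 ± 0.29 (SE) or 1.49-fold, at limma's adjusted p = 0.880, and it was 0.84 without ligand array 3. The receptors for the fragments C3a and C5a, C3AR1 and C5AR1, were too dim to be tested. C5AR1 read 112, 68.5 and 75.2 with vehicle and 155, 136 and 139 with the ligand, and C3AR1 41.8, 150 and 148 with vehicle and 74.2, 122 and 221 with the ligand, groups apart for C5AR1 and overlapping for C3AR1.

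Across all 30 measured members the median log2 difference was 0.098, 19 genes having a higher and 11 a lower mean in treated animals, beside 50.3% of all tested probe sets above 0. This split rested on vehicle array 3: without it 12 were higher, with a median of -0.069, and after median centring 16 were higher. The members fell into different patterns among the vehicle animals. Vehicle array 2 was the lowest of its group for 10 members, among them the C1q chains, FCN2, FCN3, CFD, CFP and C7, and vehicle array 3 for 16, among them C6, C8A, C8B, C4BPA, C4BPB, MBL2 and CLU. The summed macrophage markers were also lowest on vehicle array 2, at 19935.

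Of 22 other genes of the system or close to it, 16 were measured, 11 higher and 5 lower, with a median log2 difference of 0.28. At an unadjusted p under 0.05 stood 1 of the 16, a share near the 5.58% of all tested probe sets. This gene was C1RL, which encodes a liver protease related to C1r. C1RL read 947, 1004 and 1402 with vehicle and 267, 675 and 813 with the ligand, all ligand arrays below all vehicle arrays. Groups were apart for 2 of the 16 genes, 1 in each direction, a share near the 11.0% of all tested probe sets. The log2 difference of C1RL was -1.03 ± 0.39 (SE) at limma's adjusted p = 0.852. Complement components also belong to the acute phase programme of hepatocytes, in which 2 of 10 measured genes, SERPINA3 and LBP, were lower with the ligand at an unadjusted p under 0.05, beside 2.33% of all tested probe sets lower at that p, while C3, CFB, SERPING1 and the C4 probe set were within their spread.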

How the data were processed

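The files hold, as deposited, the signal intensity of each probe set without a log, made with MAS5 according to the submitters' processing notes; version and scaling target are not given in the sources used here. Probe sets were named through the platform annotation, and the 62 control probe sets were left out. Values were transformed to log2(signal + 16), a scale on which fold changes of dim genes are understated. Probe sets that were, on average, at least as bright as the median probe set were fitted with lmFit and eBayes with an intensity trend (limma 3.58.1, R 4.3.3) on all 6 arrays without covariates, two-sided, with Benjamini-Hochberg adjustment over all tested probe sets. The method was tested on simulated data with independent noise for each probe set, which carry no differences shared across an array. Intervals are limma's 95% intervals, and the number of animals limits the precision.

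The members, the gene lists and the tests were chosen with earlier results of these data known. The naming rule took all 36 members, other complement-related genes with an unadjusted p under 0.05, and counts of the marker lists with at most 2 of their genes. Beyond this rule, further endothelial, macrophage, stellate and fibroblast markers were named with the values known. The hepatocyte-made list held 24 members, of which 20 were measured. Of the 36 members 33 occur by symbol in a macaque gene table (T2T-MFA8v1.1) that served for names and gene order alone. The replicate numbers were not treated as pairs, since the deviations of same-numbered arrays were correlated at 0.040, -0.031 and 0.070, none above 0.1. Plots were made in matplotlib 3.10.9 under Python 3.11.15.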

Additional observations from a re-analysis of the deposited data

How the results depend on the processing

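No member passed the adjusted threshold under any alternative tried in limma, including a threshold of 0.10. The number with an unadjusted p under 0.05, 5 as reported, was 3 to 7 when 1 array was left out, falling to 3 without vehicle array 2 and without ligand array 2. The number with groups apart was 6 to 9 when 1 array was left out, and 3 after median centring. The C1q differences kept their direction under all alternatives, and leaving out 1 array gave 1.31 to 1.87 for C1QA, 0.91 to 1.56 for C1QB and 0.61 to 1.02 for C1QC. The contrast of C1q with hepatocyte-made components was 1.09 to 1.27 under the other settings.

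Of the 30 genes tested, 15 changed sign under some alternative, in each case without passing; the cause was not tested. When 1 array was left out the log2 differences ran from -0.62 to 0.052 for C1S, -0.095 to 0.72 for MBL2, -0.084 to 0.41 for MASP1, -0.048 to 0.12 for C5, -0.38 to 0.0072 for C6, -0.054 to 0.46 for C8B, -0.12 to 0.081 for C8G, -0.38 to 0.076 for CFI, -0.13 to 0.14 for C4BPA, -0.10 to 0.10 for SERPING1, -0.14 to 0.031 for CLU and -0.11 to 0.54 for CD55. Quantile normalization gave -0.044 for C5 and -0.019 for SERPING1, and median centring -0.027 for C5, -0.035 for C4BPA and -0.043 for SERPING1. Averaging all probe sets of a gene gave -0.33 for MASP1 and -0.055 for CD46. Other probe sets gave -1.27 and -0.47 for MASP1, 0.14 for MASP2, 0.47 for CLU, -0.25 for CD46 and 0.20 for CD59.

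The replicate numbers of the titles gave no clear pairing, with correlations of 0.040, -0.031 and 0.070 between the deviations of same-numbered arrays, although the arrays numbered 1, and those numbered 3, correlated best with each other between the groups; those numbered 2 did not. With the replicate number as a block, 0 members passed, 7 had an unadjusted p under 0.05, FCN2 and FCN3 being added, and C1QA, C1QB and C1QC had limma adjusted p of 0.468, 0.691 and 0.691.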
